A study of Mus musculus with 16 samples.

Results

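Adult albino mice of the BALB/c strain that lacked Nxnl1 on both alleles were exposed to bright light, and the RNA of their retina was compared with that of mice of the same genotype exposed to dim light. This comparison took every array whose title names the Nxnl1-/- genotype and a dose of 2500 lux (3 arrays) or 50 lux (3 arrays), which makes 6 of the 16 arrays of the series. The other 10 arrays were wild-type retina at 50 lux (2 arrays), 2500 lux (3 arrays) and 5000 lux (3 arrays) and knockout retina at 5000 lux (2 arrays). Per the labels, the mice were on a pure BALB/c background, 11 to 16 weeks old, of both sexes, and raised in 12 h of light at 50 lux and 12 h of darkness. They were dark adapted for 16 h, exposed for 1 h to white fluorescent light, and killed after 24 h of recovery in darkness. The neural retina was dissected away from the pigment epithelium. The labels thus give both groups the same deletion and the same handling, and a different dose of the 1 h exposure. The light level of rearing, 50 lux, served as the control. The arrays of the groups also differed in their sex-linked transcripts, as described below. The titles call the arrays biological replicates, but do not say whether an array held 1 animal or a pool. The p-values measure only the spread between arrays of a group, estimated over all 16 arrays in 6 groups.

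Nxnl1 encodes a thioredoxin-like protein of photoreceptors. Its short splice form, the rod-derived cone viability factor, is secreted and sustains cones, whereas its long form is linked to protection against oxidation. In albino retina, strong light bleaches rhodopsin and can injure photoreceptors. Müller glia, the radial glial cells that span the retina, answer photoreceptor injury with gp130 cytokine signalling through STAT3 and with the proteins of reactive gliosis. The values of genes below are log2 intensities, given for replicates 1, 2 and 3 in that order. A change is the 2500 lux mean minus the 50 lux mean on that scale, tested with limma with Benjamini-Hochberg adjustment over all 23320 probe sets above a low-signal filter, and a gene is said to have risen or fallen where its adjusted p was under 0.05. Each gene stands on its brightest probe set. A fold is written "at least" where all arrays of the lower group lay at or below log2 4, and the lower group was then set at 4. Where only some of its arrays did, the fold is against their mean as measured: at 50 lux this holds for Clcf1, Slc47a1, Bst2 and Cfi, each above log2 4 on 1 array of 3, and Matn2, Gbp2 and Bid, on 2 of 3, and at 2500 lux for Folh1 and Rgcc, on 1 of 3. In whole retina, fewer cells of a type and less RNA per cell cannot be told apart.

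Nxnl1 itself was near the lowest value of the arrays, at 2.24, 2.24 and 2.24 at 50 lux and 2.86, 2.24 and 2.24 at 2500 lux, against 7.61 and 7.53 in wild-type retina at 50 lux and 6.65, 6.84 and 5.83 at 2500 lux. The 6 knockout arrays thus lay below all wild-type arrays of both doses, although no source used here says whether the probe set lies in the deleted part. The retinal identity of the RNA was checked on defining markers. The 16 measured rod phototransduction genes had a mean level of 12.72, 12.85 and 12.95 at 50 lux and 12.11, 12.26 and 12.14 at 2500 lux, and the 20 genes of Müller glia homeostasis one of 10.33, 10.14 and 10.13 at 50 lux and 10.15, 10.10 and 10.08 at 2500 lux. Of 17 markers of neutrophils and lymphocytes, 13 were on the array and 0 passed the low-signal filter, so no fit was made for them.

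The 6 arrays differed in makeup. Xist, the RNA of the inactive X chromosome, was at 11.04, 11.44 and 11.60 at 50 lux and 2.92, 11.94 and 12.05 at 2500 lux. Eif2s3y, a gene of the Y chromosome, was at 7.59, 7.76 and 8.31 at 50 lux and 9.56, 2.21 and 2.21 at 2500 lux. Each 50 lux array thus held both transcripts at a high level, while replicate 1 at 2500 lux held only the Y-linked one and replicates 2 and 3 held only Xist. Kdm5d and Uty, also Y-linked, followed Eif2s3y. Each 50 lux array thus seems to hold RNA of both sexes and each 2500 lux array that of 1. Whether an array was the same unit at both doses, 1 animal or a pool, is not known. The 11 measured crystallins, proteins of the lens that retinal cells also make, had a mean level of 9.22, 7.48 and 6.62 at 50 lux and 4.48, 8.58 and 4.54 at 2500 lux; 0 of them passed the limma test, and 0 had an unadjusted p under 0.05. Pigment epithelium markers had a mean of 7.42, 6.65 and 6.74 at 50 lux and 6.81, 6.0 and 6.38 at 2500 lux. The crystallin and pigment epithelium levels overlapped between the doses, and the part of these transcripts in the results below was not tested. Whether the arrays held both or 1 of Xist and the Y-linked transcripts went with the dose, and the effects of the pair cannot be told apart.

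**Figure D1:**
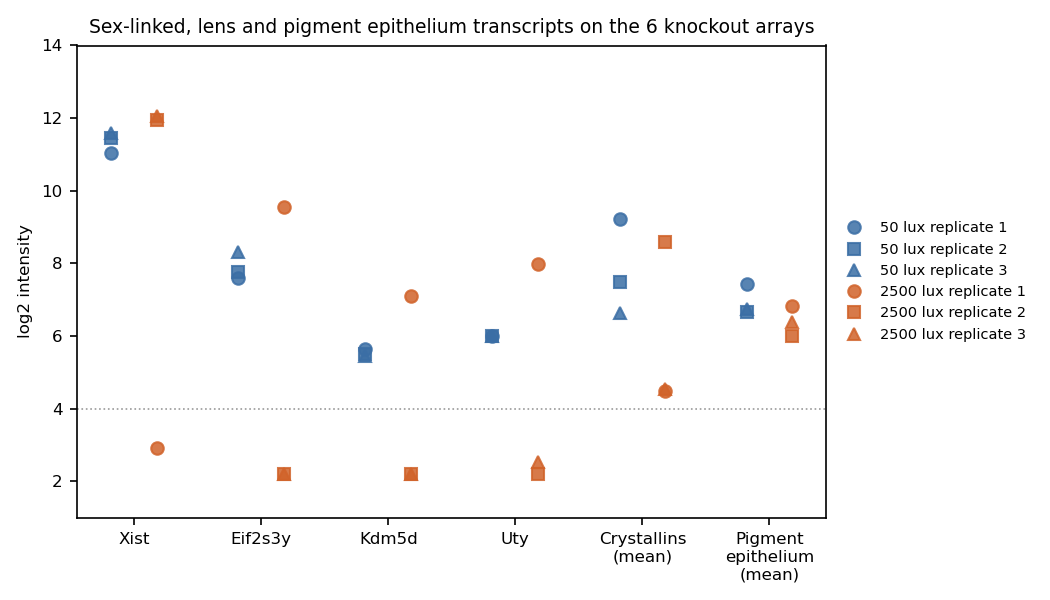
Log2 intensity (vertical axis) of Xist, 3 Y-linked genes and the mean of 11 crystallins and 15 pigment epithelium markers on each of the 6 knockout arrays, with 50 lux in blue, 2500 lux in orange and the low-signal limit of log2 4 dotted. The 50 lux arrays hold Xist and the Y-linked transcripts together, whereas each 2500 lux array holds one kind only.

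Replicates were more alike at 2500 lux than at 50 lux. Over the probe sets tested, pairs of 2500 lux arrays correlated at 0.987, 0.988 and 0.995, and pairs of 50 lux arrays at 0.981, 0.977 and 0.987. In the same order of pairs, 0.909%, 0.686% and 0.172% of probe sets differed by more than a factor of 2 at 2500 lux. At 50 lux it was 3.21%, 4.12% and 1.74%. The closest 50 lux pair, replicates 2 and 3, correlated slightly above 2500 lux replicates 1 and 2 (0.9873 against 0.9865). Limma's array weights were lowest for 50 lux replicate 1 (0.366) and highest for 2500 lux replicate 3 (3.47). The count of calls moved with single arrays: 4501 probe sets (19.3%; 8.6% higher and 10.7% lower) differed between the doses, 3727 without 50 lux replicate 1, 3381 without 2500 lux replicate 1, the array without Xist, and 2918 without 2500 lux replicate 3. Of these, 3361, 3237 and 2892 respectively were among the 4501.

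Of 10916 genes tested, 2445 (22.4%) differed between the doses, 968 (8.87%) higher and 1477 (13.5%) lower at 2500 lux. Falls were more common, and large changes were more often rises. With values below log2 4 raised to that limit, a log2 change above 1 was seen in 374 genes that rose (3.43%) and 230 that fell (2.11%). It was above 2 in 114 (1.04%) and 18 (0.165%), and above 4 in 10 (0.0916%) and 0 (0.0%). For 955 of the genes that rose and 1458 of those that fell, the 3 arrays of one dose did not overlap the 3 of the other, which is 8.75% and 13.4% of genes. Whether called or not, 1676 genes (15.4%) lay higher without overlap and 2927 (26.8%) lower. Where a gene was called, the lack of overlap given below thus adds little to the call. Over all 10916 genes the median change was -0.08. Leaving out 1 of the 6 arrays gave 731 to 982 genes higher and 926 to 1510 lower, the latter lowest without 2500 lux replicate 3. Of 1086 genes with a call and more than 1 tested probe set, 887 (81.7%) had all probe sets moving the same way, called or not. In 436 all probe sets were called the same way, and 7 had a probe set called the opposite way. The genes are described below in lists by function, some of which share members, so that their counts are not independent. Timp1 and Serpina3n, for example, are in the gp130, reactive glia and protease lists, and Irf1 is in the interferon and MHC class I lists. In each list, the count is over members that passed the low-signal filter, some of which passed only because of the dose at which they were high. The lists and their members were chosen with earlier results of these data known. The shares of all genes, 8.87% higher and 13.5% lower, are given for scale, and a list's excess over them is no test.

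**Figure D2:**
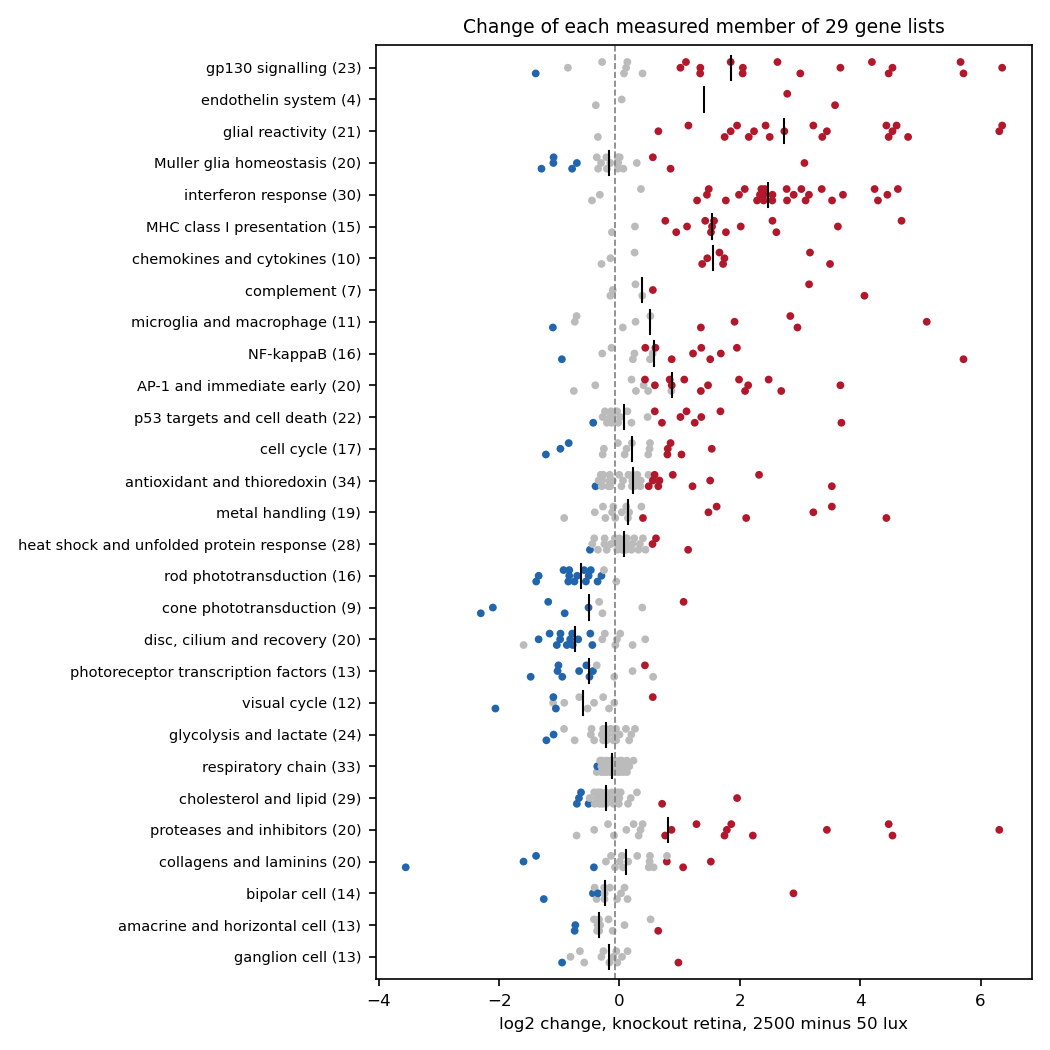
Log2 change at 2500 against 50 lux in knockout retina (horizontal axis) of each measured member of 29 gene lists, with the number of members measured in brackets, members that rose in red, that fell in blue and that did not pass the test in grey. Differences are as measured, also where a dose lay below log2 4. Black bars are list medians and the dashed line is the median of all genes (-0.08); interferon response, glial reactivity and gp130 signalling lie mostly to its right and rod phototransduction to its left.

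Most measured genes of gp130 signalling rose. The list of 33 genes holds the cytokines that bind the shared receptor chain gp130, their receptors, the JAK kinases, STAT3, its inhibitors and its targets; 23 were measured, of which 16 rose and 1 fell, with a median change of 1.85. These counts stayed at 16 rises on leaving out each array in turn. Clcf1, the only ligand of 8 above the low-signal filter, was at 4.59, 3.34 and 3.87 at 50 lux and 6.62, 6.35 and 6.70 at 2500 lux. All 2500 lux arrays lay above all 50 lux arrays, of which 1 was above log2 4, a rise of 6.17-fold against their measured mean (adjusted p = 0.00021). Lif, Cntf, Il6, Il11, Osm and Ctf1 did not pass the filter.

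Among the receptors, Osmr, the oncostatin M receptor chain, was at 6.66, 6.51 and 6.68 at 50 lux and 9.80, 9.41 and 9.66 at 2500 lux. Its groups did not overlap, and it rose 8.02-fold (log2 change 3.0, SE 0.24, adjusted p = 2.5e-06). Il6st, which encodes gp130, was at 8.22, 8.52 and 8.76 at 50 lux and 9.48, 9.61 and 9.73 at 2500 lux, and it rose 2.15-fold without overlap (adjusted p = 0.00077). Lifr changed by 0.11 (adjusted p = 0.45) and Cntfr by -0.86 (adjusted p = 0.16), so that neither passed the test. The kinases Jak1 (-0.29), Jak2 (0.13) and Tyk2 (0.08) did not pass it either. Stat3, the transcription factor of the pathway, was at 9.08, 9.35 and 9.62 at 50 lux and 11.29, 11.37 and 11.53 at 2500 lux. It rose 4.13-fold (log2 change 2.05, SE 0.17, adjusted p = 3.1e-06), with every 2500 lux array above every 50 lux array.

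The inhibitor Socs3, a STAT3 target that binds gp130 and blocks the kinases, was at 5.38, 5.12 and 5.54 at 50 lux and 10.78, 11.10 and 11.16 at 2500 lux, far apart in the 2 groups (adjusted p = 1.8e-07). Of the 10 targets, 9 rose. Bcl3, a nuclear partner of NF-kappaB, was at 2.21, 2.21 and 2.65 at 50 lux and 7.89, 8.11 and 8.22 at 2500 lux. All 50 lux arrays were below log2 4, and the rise was at least 16.8-fold (adjusted p = 6.8e-08). Timp1, an inhibitor of metalloproteases, was at 2.27, 2.27 and 2.27 at 50 lux and 7.0, 6.41 and 7.02 at 2500 lux, a rise of at least 7.01-fold (adjusted p = 5e-06). Cebpb, a transcription factor, rose 4.14-fold, and Mcl1, a survival protein of the BCL2 family, 2.02-fold, both without overlap. The same STAT motif lay in the promoters of Socs3 and of Prss56, a secreted serine protease made by Müller glia. Prss56 was at 5.04, 2.78 and 4.88 at 50 lux and 10.01, 10.79 and 10.84 at 2500 lux (adjusted p = 3.1e-05), again with no overlap.

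The 2 promoters are shown because both genes are among the 40 largest rises and hold the motif TTCNNNGAA at a like distance from the gene start. Sequences are from RefSeq on GRCm38.p6, from 250 bases before to 50 after the start, written 5′ to 3′ on the strand of the gene. Capitals mark the motif, which begins 154 bases before the start in Socs3 (chr11:117969317-117969616, minus strand) and 152 in Prss56 (chr1:87183064-87183363, plus strand) and shares no base with another motif searched.
Socs3: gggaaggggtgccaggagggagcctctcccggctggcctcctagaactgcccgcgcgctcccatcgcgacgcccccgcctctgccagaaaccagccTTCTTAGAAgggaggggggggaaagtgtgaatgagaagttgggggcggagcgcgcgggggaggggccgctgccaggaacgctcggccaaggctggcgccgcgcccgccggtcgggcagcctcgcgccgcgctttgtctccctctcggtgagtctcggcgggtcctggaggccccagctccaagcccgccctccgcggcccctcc
Prss56: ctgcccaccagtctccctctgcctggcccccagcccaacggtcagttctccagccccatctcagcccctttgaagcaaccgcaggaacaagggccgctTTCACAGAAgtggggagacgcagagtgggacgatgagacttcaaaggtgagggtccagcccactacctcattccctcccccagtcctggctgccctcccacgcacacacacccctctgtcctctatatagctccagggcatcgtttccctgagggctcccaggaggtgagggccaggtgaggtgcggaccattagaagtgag
Of the 40 largest rises, 27 had a promoter in the table, and the motif, searched on both strands, was in 6 (22.2%), against 9.55% of 27025 genes and 8.0% of the genes tested that had a promoter. The other 4 were Steap4, Nupr1, Irgm2 and Igtp. A match describes letters and not a bound site.

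Endothelin 2, a vasoactive peptide that photoreceptors make on injury, and its receptor rose together. Edn2 was at 6.83, 7.35 and 8.36 at 50 lux and 10.11, 10.20 and 10.60 at 2500 lux, a rise of 6.9-fold without overlap (log2 change 2.79, SE 0.30, adjusted p = 2.7e-05). Ednrb, the type B receptor present on Müller glia, was at 6.19, 6.19 and 6.24 at 50 lux and 9.59, 9.91 and 9.86 at 2500 lux. The groups lay apart, by 12.0-fold (log2 change 3.58, SE 0.26, adjusted p = 1.3e-06). The converting enzymes Ece1 (0.04) and Ece2 (-0.39) did not pass the test, with adjusted p = 0.92 and 0.55.

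Of 23 measured genes of growth factor signalling, 6 rose and 1 fell, with a median of 0.11, and 3 to 6 rose on leaving out single arrays, lowest without 2500 lux replicate 2. Fgf2, basic fibroblast growth factor, a photoreceptor survival factor, was at 2.25, 2.36 and 2.25 at 50 lux and 4.53, 5.36 and 5.10 at 2500 lux. The 50 lux arrays were all below log2 4 and the rise was at least 2.0-fold (adjusted p = 1.9e-05). Tgfa, an EGF receptor ligand, rose 1.65-fold (adjusted p = 0.0019) and Spry2, a feedback inhibitor of receptor kinases, 1.54-fold (adjusted p = 0.0098). Hbegf, another ligand of the EGF receptor, rose 1.9-fold (adjusted p = 0.01), and the call was lost without 2500 lux replicate 2 (highest adjusted p = 0.0504). Ccn2, a matrix-bound growth modulator, fell 4.22-fold, from 7.93, 7.93 and 8.31 to 6.05, 6.11 and 5.77 (adjusted p = 0.00034). Bdnf (0.55, adjusted p = 0.086) and Vegfa (-0.10, adjusted p = 0.65) did not pass the test. In the TGF-beta and BMP list, 3 of 14 measured members rose and 1 fell: the ligand Tgfb2 rose 1.8-fold, the receptor Acvr1 1.71-fold and the target Tgfbi, a secreted adhesion protein, at least 1.53-fold, while the ligand Tgfb3 fell 1.79-fold. The call of Tgfb3 was lost under 1 of 11 other settings (highest adjusted p = 0.056, 8 knockout arrays only).

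Several of the largest rises belonged to none of these pathways. Nupr1, a stress-induced nuclear protein, was at 5.82, 4.23 and 4.83 at 50 lux and 9.08, 9.38 and 9.05 at 2500 lux (log2 change 4.21, SE 0.36, adjusted p = 4.4e-06). Lad1, which encodes the anchoring protein ladinin, was at 2.63, 2.68 and 3.02 at 50 lux and 7.07, 7.47 and 7.58 at 2500 lux, a rise of at least 10.4-fold (adjusted p = 8.2e-06). Tnnt2, cardiac troponin T, was at 3.06, 3.01 and 3.06 at 50 lux and 6.73, 7.27 and 7.07 at 2500 lux (adjusted p = 3.2e-07). In all 3 the arrays of the 2 doses did not overlap, and Lad1 and Tnnt2 were below log2 4 on every 50 lux array. Spidr, a scaffold of DNA repair, rose at least 9.47-fold, and Mvp, the main protein of vault particles, at least 6.51-fold. Matn2, an extracellular matrix adaptor, rose 11.2-fold, Slc47a1, an organic cation exporter, 9.69-fold, and Parp9, a partner of interferon signalling, at least 12.0-fold. Each was called in all fits that left out 1 array.

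**Figure D3:**
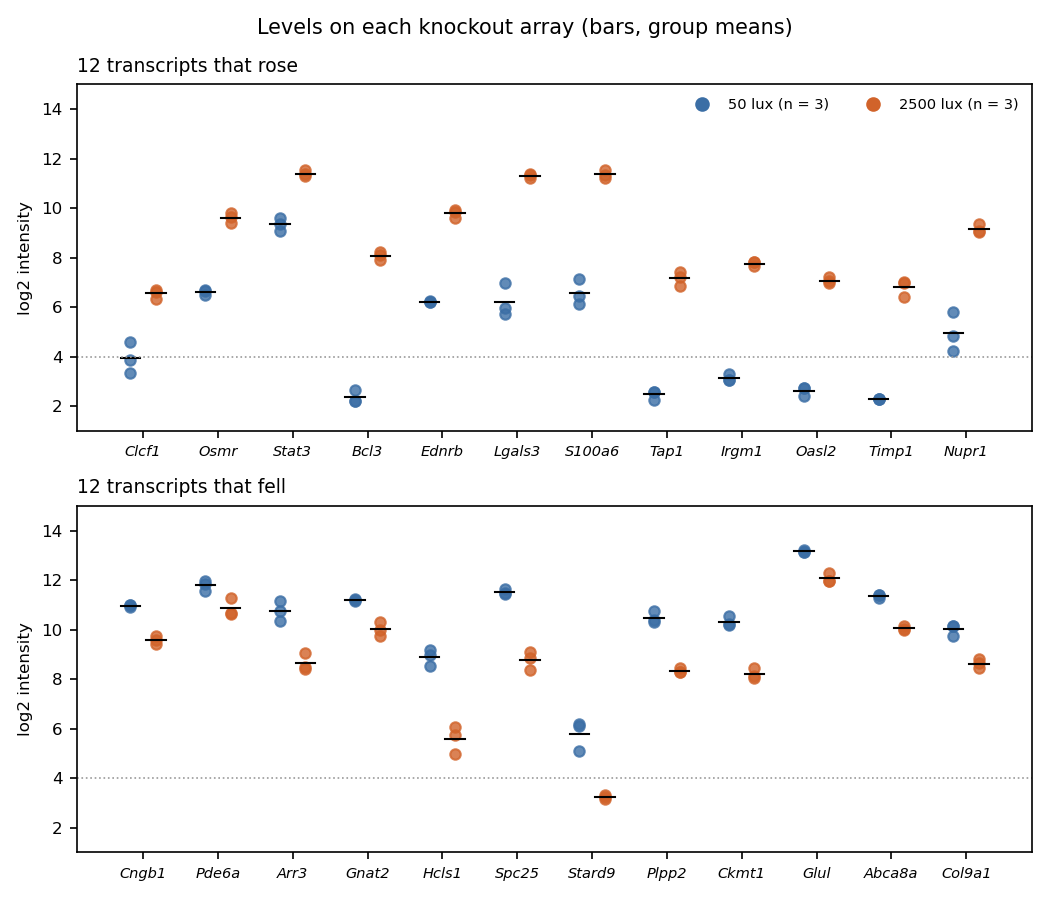
Log2 intensity (vertical axis) of 12 transcripts that rose and 12 that fell, with a point for each of the 3 arrays at 50 lux (blue) and at 2500 lux (orange), bars for group means and the low-signal limit of log2 4 dotted. For all 24 the points of the 2 doses do not overlap; Bcl3, Tap1, Oasl2, Irgm1 and Timp1 lie below log2 4 on all 50 lux arrays.

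Genes of reactive glia rose almost as a whole: of 21 measured of 23 listed, 20 rose and none fell, with a median of 2.74, and 19 to 20 rose on leaving out single arrays. Of the filaments, Vim, vimentin, was at 11.70, 11.40 and 11.62 at 50 lux and 13.63, 13.83 and 13.71 at 2500 lux, and Tubb6, a beta tubulin, at 3.69, 3.18 and 3.18 at 50 lux and 7.62, 8.13 and 8.11 at 2500 lux. Both separated by dose, and they rose 4.43-fold and at least 15.5-fold respectively (adjusted p = 9.9e-08 and 1.7e-06). Of the secreted proteins, Serpina3n, a serine protease inhibitor, was at 5.16, 4.35 and 4.98 at 50 lux and 9.24, 9.20 and 9.47 at 2500 lux. It rose 22.2-fold (adjusted p = 4.7e-07), with no overlap. A2m, a broad protease inhibitor, rose 10.9-fold and Chil1, a chitinase-like lectin, 10.3-fold. Cp, the copper-carrying oxidase of iron, rose 9.33-fold, though another probe set of Cp was called lower. S100a6, a calcium-binding protein, was at 7.13, 6.15 and 6.43 at 50 lux and 11.54, 11.21 and 11.34 at 2500 lux, a rise of 27.8-fold (log2 change 4.80, SE 0.28, adjusted p = 2.5e-07). Steap4, a metalloreductase, was at 2.82, 3.13 and 2.79 at 50 lux and 7.47, 7.13 and 7.45 at 2500 lux, a rise of at least 10.2-fold. The surface receptor Tnfrsf12a, which binds TWEAK, rose 6.68-fold and the annexin Anxa3 at least 1.87-fold.

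The genes by which Müller glia serve neurons moved in both directions. Of 20 measured, 3 rose and 5 fell, with a median of -0.18. Glul, glutamine synthetase, which recycles glutamate, was at 13.13, 13.23 and 13.14 at 50 lux and 12.28, 11.97 and 11.97 at 2500 lux, a fall of 2.13-fold (log2 change -1.09, SE 0.17, adjusted p = 0.00061). Rlbp1, the retinaldehyde carrier, fell 2.14-fold, Abca8a, a lipid transporter, 2.45-fold, Car14, carbonic anhydrase 14, 1.72-fold and Apoe, the lipid carrier, 1.63-fold. Against these, Crym, a thyroid hormone-binding protein, was at 9.40, 8.74 and 8.56 at 50 lux and 12.0, 11.92 and 12.01 at 2500 lux and rose 8.42-fold (adjusted p = 4.3e-07). The factor Sox2 rose 1.8-fold and the chaperone Clu, clusterin, 1.47-fold. Slc1a3, the glutamate transporter, changed by 0.29 and did not pass the test (adjusted p = 0.055).

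Most measured chemokines and cytokines that attract or sustain myeloid cells rose. Of 24 listed genes, 10 were measured; 7 rose and none fell, in all fits that left out 1 array. Ccl12, a monocyte attractant, was at 2.68, 2.68 and 2.68 at 50 lux and 6.59, 5.74 and 6.22 at 2500 lux. It was below log2 4 on all 50 lux arrays and rose at least 4.53-fold (adjusted p = 6.8e-08). Ccl2, its close relative, was at 3.85, 4.06 and 4.29 at 50 lux and 7.01, 6.94 and 7.76 at 2500 lux, with no overlap (adjusted p = 1.8e-05). Cxcl16 rose 3.35-fold, Cxcl12, the ligand of CXCR4, 3.16-fold, the nuclear alarmin Il33 2.59-fold and Csf1, the growth factor of macrophages, 3.3-fold. Cxcl10, an interferon-induced chemokine, was at 2.81, 2.60 and 2.87 at 50 lux and 4.54, 4.11 and 4.0 at 2500 lux, close to the limit of log2 4, and its call was lost under 1 of 10 other settings (highest adjusted p = 0.51, values below log2 4 raised to log2 4). Il18 (-0.30, adjusted p = 0.082) and Cx3cl1 (-0.15, adjusted p = 0.71) did not pass the test. Il1a, Il1b, Tnf, Ccl3, Ccl4, Ccl5 and Ccl7 did not pass the filter.

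The interferon response was the list with the most rises. Of 36 listed genes 30 were measured, and 27 rose and none fell, with a median of 2.48 (2.33 with values below log2 4 raised to it); 27 rose in every fit that left out 1 array. All 4 measured transcription factors rose: Irf7 was at 3.69, 3.25 and 3.68 at 50 lux and 6.80, 6.87 and 7.02 at 2500 lux, a rise of at least 7.46-fold, and Irf9, a DNA-binding factor of the interferon response, rose 7.44-fold and Irf1 5.83-fold. All 13 measured effectors rose. Oasl2, of the oligoadenylate synthetase family, was at 2.43, 2.72 and 2.72 at 50 lux and 7.04, 6.96 and 7.21 at 2500 lux. All 50 lux arrays lay below log2 4, and the rise was at least 8.41-fold (adjusted p = 4.5e-07). Usp18, which removes ISG15 and dampens the receptor, was at 2.67, 2.82 and 2.25 at 50 lux and 6.72, 6.91 and 7.0 at 2500 lux and rose at least 7.33-fold. Rtp4 rose at least 7.57-fold, and Bst2, tetherin, 8.53-fold. Of the membrane proteins, Ifitm3, which blocks virus entry, rose 8.87-fold. Of the 4 measured interferon receptor chains 1 rose.

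All 6 measured genes of the guanylate-binding and immunity-related GTPases rose. Irgm1, which acts on membranes of vacuoles, was at 3.05, 3.31 and 3.05 at 50 lux and 7.66, 7.81 and 7.81 at 2500 lux, and Igtp, of the same family, at 4.80, 4.53 and 4.19 at 50 lux and 8.21, 8.05 and 8.40 at 2500 lux. Neither overlapped between the doses, with rises of at least 13.6-fold and 13.1-fold (adjusted p = 6.5e-07 and 9.1e-06). Gbp2 rose 11.6-fold, Gbp3 6.89-fold and Gbp7 6.86-fold. Members of the Gbp, Irgm, Ifit and H2 families include closely similar copies, and a probe set can read several of them, so the values of a single member are uncertain.

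The promoters of Irgm1 and Igtp are shown because the interferon-stimulated response element (TTTC, 2 bases of any kind and TTTC, searched on both strands) lies close to their gene starts. Capitals mark it, from 30 and 24 bases before the start in 2 overlapping matches in Irgm1 (chr11:48871371-48871670, minus strand) and from 34 bases before it in Igtp (chr11:58199306-58199605, plus strand), on the strand opposite to the one printed. No other motif searched shares these bases.
Irgm1: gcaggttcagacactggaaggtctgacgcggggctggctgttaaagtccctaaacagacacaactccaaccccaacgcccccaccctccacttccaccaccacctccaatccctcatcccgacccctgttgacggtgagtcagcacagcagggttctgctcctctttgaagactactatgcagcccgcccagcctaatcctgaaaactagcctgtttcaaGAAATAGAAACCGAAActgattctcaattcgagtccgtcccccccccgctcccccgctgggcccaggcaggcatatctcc
Igtp: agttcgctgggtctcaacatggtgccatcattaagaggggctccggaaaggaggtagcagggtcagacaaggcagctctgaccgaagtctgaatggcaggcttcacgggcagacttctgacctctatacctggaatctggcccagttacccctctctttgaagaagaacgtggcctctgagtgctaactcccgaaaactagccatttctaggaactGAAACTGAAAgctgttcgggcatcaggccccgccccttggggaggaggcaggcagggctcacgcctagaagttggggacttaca
Of the interferon list, 26 of the 30 measured genes had a promoter, and 14 (53.8%) held this motif, against 3.99% of 27025 genes. Of the 27 promoters of the largest rises, 5 (18.5%) held it: Irgm1, Irgm2, Igtp, Gbp2b and Gbp2.

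MHC class I presentation, by which cells show peptides to T cells, had rises among its chains, loading proteins, immunoproteasome subunits and factors. Of 15 measured of 19 listed, 13 rose and none fell, with a median of 1.54, also on leaving out each array. Tap1, the peptide transporter, was at 2.26, 2.58 and 2.59 at 50 lux and 6.85, 7.21 and 7.43 at 2500 lux, a rise of at least 8.95-fold (adjusted p = 7.6e-05). Nlrc5, the activator of class I genes, was at 2.39, 2.21 and 2.27 at 50 lux and 5.87, 5.73 and 6.16 at 2500 lux. Both were below log2 4 on every 50 lux array and well above it on every 2500 lux array. The light chain B2m rose 4.04-fold, the heavy chains H2-D1 3.41-fold and H2-K1 2.69-fold, the immunoproteasome subunits Psmb8 6.09-fold and Psmb10 2.9-fold, and the loading chaperone Tapbp 2.87-fold. In the standard proteasome, 1 of 22 measured subunits rose and none fell, with a median of 0.08.

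Complement was divided. Of 20 listed genes 7 were measured, 3 rose and none fell. Serping1, the inhibitor of C1, was at 4.50, 4.14 and 4.88 at 50 lux and 8.76, 8.45 and 8.52 at 2500 lux and Cfi, the protease that inactivates C3b, at 4.61, 3.28 and 3.29 at 50 lux and 6.85, 6.86 and 6.92 at 2500 lux. Both separated by dose, with rises of 16.8-fold and, against a 50 lux mean with 1 array of 3 above log2 4, 8.88-fold (adjusted p = 3.2e-07 and 7.3e-06). C1qa, a chain of the recognition protein C1q that microglia make, was at 6.53, 6.45 and 5.86 at 50 lux and 6.50, 6.02 and 5.97 at 2500 lux, and C1qb at 7.38, 6.67 and 6.78 at 50 lux and 7.46, 7.38 and 7.12 at 2500 lux. The groups overlapped for both, and neither passed the test (adjusted p = 0.84 and 0.49).

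Microglia and macrophage markers were divided too. Of 21 listed, 11 were measured, 5 rose and 1 fell, with a median of 0.51 (0.09 with values below log2 4 raised to it). Their mean level was 5.23, 4.94 and 4.86 at 50 lux and 6.37, 5.98 and 6.08 at 2500 lux. Of 5 measured genes of activation 4 rose. Lgals3, galectin-3, was at 6.98, 5.95 and 5.72 at 50 lux and 11.40, 11.22 and 11.34 at 2500 lux, a rise of 34.4-fold (log2 change 5.11, SE 0.33, adjusted p = 5.8e-07), and Gpnmb, a glycoprotein of phagocytes, rose 3.76-fold. Msr1, a scavenger receptor, was at 2.60, 2.39 and 2.39 at 50 lux and 4.07, 3.53 and 3.83 at 2500 lux, close to or below log2 4 (adjusted p = 0.0014). The fifth, the lysosomal protease Ctss, was at 9.36, 9.19 and 9.03 at 50 lux and 8.81, 8.30 and 8.35 at 2500 lux and did not pass the test (-0.71, adjusted p = 0.078). Cd14, the lipopolysaccharide co-receptor, was at 2.43, 2.43 and 2.43 at 50 lux and 5.45, 5.04 and 5.31 at 2500 lux and rose at least 2.41-fold (adjusted p = 1.3e-05). The lysosomal protein Cd68 rose at least 4.43-fold. Csf1r, the receptor of Csf1, was at 7.48, 7.41 and 7.27 at 50 lux and 6.76, 5.87 and 6.21 at 2500 lux and fell 2.15-fold (adjusted p = 0.03), and the call was lost without 50 lux replicates 1, 2 and 3 or 2500 lux replicates 2 and 3 in turn (highest adjusted p = 0.12). Of the markers of all myeloid cells, Tyrobp (0.27, adjusted p = 0.47) and Laptm5 (-0.74, adjusted p = 0.23) did not pass the test, nor did Fcer1g, which was below log2 4 on 5 of the 6 arrays. Of 6 markers of microglia proper, 2 passed the filter.

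In the NF-kappaB list, 9 of 16 measured genes rose and 1 fell. Of the receptors and adaptors, Myd88, the adaptor of Toll-like receptors, rose 2.84-fold (adjusted p = 0.0084) and Tnfrsf1a, the TNF receptor, 2.57-fold. Of 7 measured inhibitors, 5 rose, among them Nfkbie 3.87-fold, Nfkbia 2.33-fold and Nfkbiz 1.83-fold. Tnfaip3, the ubiquitin-editing inhibitor A20, fell 1.94-fold, from 10.78, 10.84 and 10.85 to 9.86, 9.91 and 9.83 (adjusted p = 2.2e-05). The subunit Rela rose 1.51-fold, and the call was lost without 50 lux replicates 1 and 2 or 2500 lux replicates 2 and 3 in turn (highest adjusted p = 0.078).

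Immediate early genes were measured 24 h after the light. Of 20, 13 rose and none fell, and 10 to 12 rose on leaving out single arrays. Junb was at 5.07, 5.32 and 5.09 at 50 lux and 8.51, 8.85 and 9.12 at 2500 lux, a rise of 12.7-fold (adjusted p = 2.1e-06), and Atf3, a stress-induced factor of the ATF family, was at 5.84, 5.88 and 6.71 at 50 lux and 8.85, 8.78 and 8.87 at 2500 lux, a rise of 6.45-fold. Neither overlapped. Klf10 rose 4.4-fold, Zfp36, which destabilises cytokine mRNA, 3.96-fold, Jun 2.55-fold and Klf6 1.83-fold. Myc was at 2.61, 2.53 and 2.56 at 50 lux and 4.50, 5.61 and 5.03 at 2500 lux, a rise of at least 2.07-fold (adjusted p = 4.8e-05). Fosl1 was at 2.21, 2.21 and 2.21 at 50 lux and 3.83, 4.37 and 4.69 at 2500 lux, close to or below the limit of log2 4, and its call was lost under 1 of 10 other settings (highest adjusted p = 0.075, values below log2 4 raised to log2 4). Fos (0.86), Egr1 (-0.76), Dusp1 (-0.40) and Ier2 (0.40) were among the 7 that did not pass the test.

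Genes of cell death and p53 moved in part. Of 22 measured of 37 listed, 8 rose and 1 fell, with a median of 0.07. Gadd45b, a stress-induced regulator of MAP kinases, was at 4.56, 4.44 and 5.24 at 50 lux and 8.26, 8.53 and 8.50 at 2500 lux and rose 12.9-fold (adjusted p = 1.1e-06), while its relative Gadd45a fell 1.35-fold (adjusted p = 0.032), and the call was lost without 50 lux replicates 1 and 2 or 2500 lux replicates 2 and 3 in turn (highest adjusted p = 0.15). Casp8, the initiator caspase of death receptors, was at 3.19, 2.81 and 2.81 at 50 lux and 4.87, 4.45 and 4.53 at 2500 lux and rose at least 1.53-fold. Bid, which links that caspase to mitochondria, rose 2.57-fold and Parp1, a sensor of DNA breaks, 1.5-fold. In the cell cycle list, 5 of 17 measured genes rose and 3 fell. Of 7 genes of G1, Ccnd1, cyclin D1, rose 2.9-fold, Ccnd3 2.04-fold, Ccnd2 1.74-fold and their kinase Cdk4 1.74-fold. Cdk6 (0.09) and the inhibitors Cdkn1b (-0.28) and Cdkn1c (-0.26) did not pass the test. Ccna2, cyclin A2 of S phase, fell 1.97-fold and Tyms, thymidylate synthase, at least 1.55-fold; for Tyms the call was lost without 2500 lux replicate 3 (highest adjusted p = 0.064). Of the 5 measured S and M phase genes 0 rose by limma, 2 having a higher level at an unadjusted p under 0.05.

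Antioxidant genes, the field of the deleted protein, rose in a minority. Of 34 measured of 42 listed, 10 rose and 1 fell, with a median of 0.22, and the rises numbered 6 to 11 on leaving out single arrays, lowest without 50 lux replicate 2 and without 2500 lux replicate 1. Hmox1, heme oxygenase, was at 2.88, 2.63 and 2.88 at 50 lux and 6.02, 6.25 and 6.72 at 2500 lux (adjusted p = 1.2e-06), with no overlap. Its regulator Nfe2l2 (NRF2) rose 1.5-fold (adjusted p = 0.0038) and Slc7a11, the cystine importer, at least 1.48-fold from below log2 4. Mgst1, a membrane-bound glutathione transferase, was at 6.44, 6.10 and 6.68 at 50 lux and 9.09, 8.38 and 8.70 at 2500 lux, a rise of 4.99-fold. Gpx8, a peroxidase of the endoplasmic reticulum, rose 2.32-fold and Sod2, the mitochondrial superoxide dismutase, 1.58-fold. Nxnl2, the paralogue of Nxnl1, was at 10.91, 10.82 and 10.88 at 50 lux and 10.68, 10.56 and 10.51 at 2500 lux. It changed by -0.29 and did not pass the test (adjusted p = 0.072). Txn1, thioredoxin, rose 1.4-fold (adjusted p = 0.028) and Nxn, nucleoredoxin, 1.56-fold (adjusted p = 0.015). For Txn1, the call was lost without 50 lux replicates 2 and 3 or 2500 lux replicates 1, 2 and 3 in turn (highest adjusted p = 0.1). For Nxn, the call was lost without 50 lux replicate 2 or 2500 lux replicates 1 and 3 in turn (highest adjusted p = 0.061).

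Of 19 measured genes of metal handling 7 rose and none fell. Of the metallothioneins, zinc-binding scavengers, 2 of 3 rose, Mt2 from 9.19, 8.47 and 8.09 to 10.67, 10.65 and 10.75 (4.3-fold, adjusted p = 9.9e-05) and Mt1 3.06-fold, while Mt3, the neural form, changed by -0.92 and did not pass the test (adjusted p = 0.074). The zinc importer Slc39a1 rose 2.79-fold. None of 6 measured iron genes rose or fell by limma; 0 were higher and 1 lower at an unadjusted p under 0.05. Few chaperone genes changed. Of 28 measured heat shock and unfolded protein response genes, 3 rose and 1 fell. Bag3, a co-chaperone of selective autophagy, rose 2.21-fold, the stress sensor kinase Eif2ak3 1.52-fold and the factor Ddit3 (CHOP) 1.46-fold. Hspa5, the main chaperone of the endoplasmic reticulum, changed by 0.32 (adjusted p = 0.095).

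Rod genes fell together and by less than a factor of 3. Of 16 measured rod phototransduction genes 14 fell and none rose, with a median of -0.64, against -0.08 over all genes; 12 to 14 fell on leaving out single arrays. All 3 subunits of rod transducin and of the phosphodiesterase and all 3 genes of the channel and exchanger fell. Of the transducin genes, Gngt1, the gamma chain, fell 1.78-fold and Gnb1 1.43-fold. Of the phosphodiesterase, Pde6a was at 11.58, 11.87 and 11.96 at 50 lux and 10.64, 11.29 and 10.69 at 2500 lux, a fall of 1.9-fold (log2 change -0.93, SE 0.18, adjusted p = 0.0025), Pde6g fell 1.68-fold and Pde6b 1.63-fold. Cngb1, a subunit of the cGMP-gated channel, was at 10.98, 10.99 and 10.94 at 50 lux and 9.44, 9.74 and 9.59 at 2500 lux, with no overlap (adjusted p = 8.5e-06). Its partner Cnga1 fell 1.8-fold, and Slc24a1, the sodium-calcium exchanger of the outer segment, 1.78-fold. In shut-off, Gnb5 fell 1.5-fold and Rcvrn, recoverin, 1.39-fold.

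Cone genes did not move as one. Of 9 measured, 5 fell and 1 rose. Opn1sw, the short-wavelength opsin, was at 12.48, 12.64 and 12.46 at 50 lux and 10.69, 10.14 and 9.84 at 2500 lux (adjusted p = 0.0005), and Arr3, cone arrestin, which stops the activated opsin, at 10.37, 10.74 and 11.15 at 50 lux and 8.42, 8.49 and 9.04 at 2500 lux (adjusted p = 8.1e-05). Neither overlapped. Opn1mw, the medium-wavelength opsin, was at 9.44, 9.42 and 9.35 at 50 lux and 9.31, 8.99 and 8.90 at 2500 lux; the groups did not overlap, and the change of -0.34 did not pass the test (adjusted p = 0.24). Gnat2, the alpha chain of cone transducin, was at 11.24, 11.15 and 11.20 at 50 lux and 10.31, 9.97 and 9.76 at 2500 lux, a fall of 2.27-fold (log2 change -1.18, SE 0.17, adjusted p = 0.00037). Gnb3, the beta chain shared with ON bipolar cells, went the other way, from 10.98, 11.06 and 11.34 to 12.04, 12.21 and 12.32, a rise of 2.09-fold (adjusted p = 4.7e-05). Of the channel, Cngb3 fell 1.88-fold (adjusted p = 0.0032). Pde6c, the cone phosphodiesterase, changed by 0.38 (adjusted p = 0.12) and Rxrg by -0.28 (adjusted p = 0.17), and neither passed the test. Pde6h, the inhibitory subunit of the cone phosphodiesterase, fell 1.43-fold, and the call was lost without 50 lux replicates 1 and 2 or 2500 lux replicates 2 and 3 in turn (highest adjusted p = 0.14).

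The promoters of Arr3 and Opn1sw are shown because they hold the motif CTAATC, read by CRX, the homeodomain factor of photoreceptors, and were the cone genes that fell most. Capitals mark it, from 117, 103 and 11 bases before the start in Arr3 (chrX:100605247-100605546, plus strand) and from 50 before it in Opn1sw (chr6:29380464-29380763, minus strand), with no base shared with another motif searched.
Arr3: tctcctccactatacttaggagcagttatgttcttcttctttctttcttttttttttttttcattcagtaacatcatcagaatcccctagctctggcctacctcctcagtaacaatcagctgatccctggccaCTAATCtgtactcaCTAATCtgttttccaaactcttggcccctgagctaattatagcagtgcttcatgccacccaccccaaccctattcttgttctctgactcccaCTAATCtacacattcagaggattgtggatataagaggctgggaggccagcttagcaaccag
Opn1sw: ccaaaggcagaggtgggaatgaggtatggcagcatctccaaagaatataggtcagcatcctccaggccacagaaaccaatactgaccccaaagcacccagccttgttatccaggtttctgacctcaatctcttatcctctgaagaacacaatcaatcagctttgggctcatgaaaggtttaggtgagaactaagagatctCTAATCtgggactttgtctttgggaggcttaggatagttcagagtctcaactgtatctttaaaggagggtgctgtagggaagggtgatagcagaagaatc
Of the 40 largest falls, 33 had a promoter, and 6 (18.2%) held the motif on either strand, against 7.38% of 27025 genes. The other 4 were Rpe65, Gpsm3, Pla2r1 and Samd11. Among rod genes with a promoter it was in 3 of 11 (27.3%), namely Pde6b, Cngb1 and Gnb5.

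Genes of the outer segment, the connecting cilium and the synapse fell as well, 12 of 20 measured, with none rising and a median of -0.73. Of disc genes, Fscn2, an actin bundler of photoreceptors, was at 9.32, 9.02 and 8.96 at 50 lux and 7.92, 7.73 and 7.63 at 2500 lux, a fall of 2.54-fold (adjusted p = 0.0013); Cdhr1, a cadherin of nascent discs, fell 1.76-fold and Rom1, a rim protein, 1.61-fold. Of cilium genes, Rp1l1, of the axoneme, fell 2.23-fold and Tulp1, of protein transport, 1.98-fold. Guca1a, which activates guanylate cyclase when calcium is low, fell 1.97-fold. At the synapse, Cacna1f, the calcium channel of the ribbon, was at 9.67, 9.98 and 10.43 at 50 lux and 8.93, 9.04 and 8.98 at 2500 lux, a fall of 2.06-fold without overlap, and its regulator Cabp4 fell 1.72-fold.

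Transcription factors of photoreceptors followed. Of 13 measured, 8 fell and 1 rose. Nrl, which sets rod identity, was at 13.69, 13.89 and 13.93 at 50 lux and 12.91, 12.86 and 12.89 at 2500 lux, a fall of 1.93-fold (log2 change -0.95, SE 0.13, adjusted p = 0.00023). Crx fell 1.41-fold, Otx2, its upstream factor, 1.36-fold, Prdm1 (BLIMP1) 2.02-fold and the repressor Ankrd33 2.04-fold. Mef2c, a MADS-box factor of rods and of microglia, was at 9.10, 8.98 and 9.26 at 50 lux and 7.50, 7.80 and 7.61 at 2500 lux, a fall of 2.78-fold (adjusted p = 3.4e-05). Neurod1, a neurogenic factor, rose 1.34-fold (adjusted p = 0.011).

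In the visual cycle, which remakes the chromophore, 3 of 12 measured genes fell and 1 rose. Rdh12, the retinol dehydrogenase of photoreceptors, fell 2.08-fold, from 12.16, 12.18 and 12.13 to 11.08, 11.16 and 11.07 (adjusted p = 0.0001). Rpe65, the isomerase of the pigment epithelium, was at 9.80, 8.87 and 8.54 at 50 lux and 8.18, 6.06 and 6.79 at 2500 lux (adjusted p = 0.0067). The labels say that this tissue was removed at dissection, and the part of what remained was not tested. Of 15 measured pigment epithelium markers 1 rose and 2 fell. Mc1r, a receptor of pigment cells, fell 7.43-fold, from 7.04, 6.52 and 6.55 to 3.72, 4.01 and 3.69 (adjusted p = 1e-06). Pmel, of melanosomes, was at 2.21, 2.21 and 3.95 at 50 lux and 3.95, 3.95 and 4.31 at 2500 lux, close to or below log2 4, and the call was lost without 50 lux replicates 1 and 2 or 2500 lux replicates 1, 2 and 3 in turn (highest adjusted p = 0.14). The markers Lrat (-0.92, adjusted p = 0.15), Rgr (-1.10, adjusted p = 0.057), Rdh5 (-0.67, adjusted p = 0.19) and Ttr (-0.53, adjusted p = 0.25) did not pass the test. The call of Rpe65 was lost with the 6 arrays fitted alone (adjusted p = 0.056). Rdh10, which makes retinaldehyde also outside that tissue, rose 1.47-fold (adjusted p = 0.0021).

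The largest falls lay mostly outside the lists. Glb1l3, a beta-galactosidase-like gene, was at 7.76, 7.40 and 7.29 at 50 lux and 2.63, 2.57 and 2.54 at 2500 lux (adjusted p = 1.3e-06), a fall of at least 11.2-fold to below log2 4 on every 2500 lux array. Hcls1, an actin regulator first known from blood cells, was at 8.97, 8.54 and 9.19 at 50 lux and 4.98, 6.06 and 5.74 at 2500 lux, a fall of 9.88-fold (log2 change -3.30, SE 0.25, adjusted p = 1.4e-06). Ctxn1, cortexin of neurons, was at 7.46, 7.41 and 7.99 at 50 lux and 4.01, 5.35 and 5.02 at 2500 lux, a fall of 7.12-fold (adjusted p = 6.2e-05). In all 3 the arrays of the 2 doses stood apart. Spc25, a kinetochore protein, was at 11.65, 11.46 and 11.49 at 50 lux and 9.11, 8.84 and 8.37 at 2500 lux, a fall of 6.77-fold, and Stard9, a kinesin, fell at least 3.48-fold. Rgs13, a regulator of G protein signalling, fell at least 2.49-fold, and Etnppl, an enzyme of phosphoethanolamine breakdown, at least 2.09-fold. Plpp2, a lipid phosphatase, was at 10.77, 10.29 and 10.39 at 50 lux and 8.30, 8.44 and 8.30 at 2500 lux and Ckmt1, the mitochondrial creatine kinase, at 10.55, 10.18 and 10.24 at 50 lux and 8.46, 8.04 and 8.15 at 2500 lux. Both fell without overlap, 4.4-fold and 4.3-fold.

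Further falls were of transporters, enzymes and regulators. Nadk2, the mitochondrial NAD kinase that supplies NADPH, fell 3.96-fold, from 11.92, 12.26 and 12.24 to 10.28, 10.14 and 10.03 (adjusted p = 2.7e-05). Lrrc8e, a subunit of volume-regulated anion channels, fell 4.6-fold, Aqp1, a water channel, 3.22-fold and Hfe, which regulates iron uptake, 3.23-fold. Apela, a peptide ligand of the apelin receptor, fell 4.6-fold, Pla2r1, the phospholipase A2 receptor, 3.49-fold and Folh1, a peptidase that frees glutamate, 3.63-fold. Samd11, a nuclear protein of photoreceptors, fell 3.21-fold and the cell cycle regulator Rgcc 3.44-fold. Of the 40 largest falls, 3 did not keep their call with every array left out. For Sptssb the call was lost without 2500 lux replicate 3 (highest adjusted p = 0.054), for Mrtfa the call was lost without 50 lux replicates 1, 2 and 3 or 2500 lux replicates 1 and 2 in turn (highest adjusted p = 0.16) and for Syne3 the call was lost without 50 lux replicates 1, 2 and 3 or 2500 lux replicates 1, 2 and 3 in turn (highest adjusted p = 0.11).

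Few genes of energy metabolism changed. Of 24 measured genes of glycolysis and lactate, 2 fell and none rose by limma (1 higher and 9 lower at an unadjusted p under 0.05), and of 33 of the respiratory chain 1 fell and none rose (0 and 6). Slc16a1, the lactate transporter MCT1, was at 12.81, 12.88 and 12.86 at 50 lux and 11.95, 11.71 and 11.60 at 2500 lux, a fall of 2.13-fold (adjusted p = 0.0024), and Pfkfb2, which sets the rate of phosphofructokinase, fell 2.32-fold (adjusted p = 0.0017). Bsg, basigin, the partner of MCT1, changed by -0.42 (adjusted p = 0.14) and Pkm, pyruvate kinase, by -0.23 (adjusted p = 0.092). The respiratory call was Ndufa10 of complex I, -0.37, and the call was lost without 2500 lux replicate 2 (highest adjusted p = 0.06). In lipid metabolism none of 12 measured cholesterol synthesis genes passed the test (1 higher and 2 lower at an unadjusted p under 0.05). Plin2, the coat of lipid droplets, was at 6.20, 5.78 and 5.49 at 50 lux and 7.64, 7.70 and 8.0 at 2500 lux, a rise of 3.88-fold without overlap (adjusted p = 0.00033). The sterol exporter Abca1 rose 1.63-fold, while Elovl4, which elongates the very long fatty acids of photoreceptors, fell 1.59-fold and Scarb1, a lipoprotein receptor, 1.43-fold.

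Retinoic acid genes moved both ways, 4 of 13 measured rising and 2 falling. Aldh1a3, a retinaldehyde dehydrogenase that makes retinoic acid, was at 2.21, 2.21 and 2.22 at 50 lux and 4.20, 5.31 and 5.72 at 2500 lux, a rise of at least 2.11-fold (adjusted p = 9.9e-05). Tgm2, a transglutaminase that retinoic acid induces, rose 5.24-fold (adjusted p = 0.00011). Dhrs3, which returns retinaldehyde to retinol, fell 2.12-fold and the receptor Rxra 1.84-fold.

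In the extracellular matrix, 3 of 20 measured genes of collagens, laminins and their partners rose and 4 fell. Chains of type IV collagen, of basement membranes, were divided. Col4a3 was at 7.56, 7.30 and 7.91 at 50 lux and 3.94, 4.29 and 3.89 at 2500 lux and Col4a4, its partner in 1 trimer, at 6.93, 6.61 and 7.49 at 50 lux and 5.16, 5.48 and 5.62 at 2500 lux. Both fell, Col4a4 by a factor of 3.02 (adjusted p = 0.0022), whereas Col4a5 rose 2.08-fold. Col9a1, a chain of type IX collagen, fell 2.61-fold and Fn1, fibronectin, rose 1.73-fold. Of 20 measured proteases and inhibitors 11 rose and none fell, also on leaving out each array. Among them, the membrane-bound metalloprotease Mmp14 rose 3.35-fold, Adamts1 2.43-fold, tissue plasminogen activator Plat 1.82-fold, and the cathepsins Ctsc 4.65-fold and Ctsh 3.45-fold. In the vascular list, 4 of 14 measured genes rose and 2 fell. Vcam1, an adhesion molecule of endothelium that glia also make, was at 6.91, 6.41 and 6.60 at 50 lux and 8.88, 9.04 and 9.23 at 2500 lux, a rise of 5.33-fold (adjusted p = 2.1e-06). Kdr, the VEGF receptor, rose 1.55-fold and Itgb1, an integrin chain, also rose (0.72). Vwf, of endothelium, was at 2.61, 2.56 and 2.59 at 50 lux and 4.0, 3.81 and 4.41 at 2500 lux, a rise of at least 1.05-fold (adjusted p = 0.0098). Jam2, a junction protein, fell 1.77-fold (adjusted p = 0.00047) and Angpt2, an angiogenic ligand, 1.24-fold; for Angpt2 the call was lost without 50 lux replicates 1 and 2 or 2500 lux replicates 1, 2 and 3 in turn (highest adjusted p = 0.095). The endothelial markers Cldn5 (0.50, adjusted p = 0.54) and Esam (-0.12, adjusted p = 0.69) did not pass the test.

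Markers of inner retinal neurons were called in both directions, at counts near the shares of all genes (8.87% higher and 13.5% lower). Of bipolar genes 3 of 14 fell and 1 rose. Vsx1, a factor of cone bipolar cells, fell 2.39-fold (adjusted p = 0.0023) and Prkca, of rod bipolar cells, 1.28-fold. Trpm1, the channel of the ON pathway, which pigment cells also express, was at 3.42, 3.40 and 3.63 at 50 lux and 6.18, 6.45 and 6.49 at 2500 lux, a rise of at least 5.18-fold (adjusted p = 0.0005). Of 13 measured ganglion cell genes 1 rose and 1 fell, Rbpms, for which the call was lost without 50 lux replicate 1 or 2500 lux replicates 1, 2 and 3 in turn (highest adjusted p = 0.092). Gap43, a protein of growing axons, rose 1.97-fold (adjusted p = 0.0033), while Thy1 (-0.81, adjusted p = 0.093) and Nefl (-0.27, adjusted p = 0.077) did not pass the test. None of 8 measured amacrine genes rose or fell by limma (0 higher and 1 lower at an unadjusted p under 0.05); of 5 horizontal cell genes, Septin4 fell 1.68-fold and Lhx1 1.66-fold, while Prox1 rose 1.56-fold. For Lhx1 the call was lost without 50 lux replicates 1 and 3 or 2500 lux replicates 1, 2 and 3 in turn (highest adjusted p = 0.17), and for Prox1 the call was lost without 50 lux replicates 1 and 3 or 2500 lux replicates 1, 2 and 3 in turn (highest adjusted p = 0.14). Of neuropeptides, Penk, proenkephalin, rose 2.35-fold (adjusted p = 0.00065) and Nmb, neuromedin B, fell 1.49-fold. Of 17 clock genes 1 rose and 2 fell: the output repressor Bhlhe40 rose 1.75-fold (adjusted p = 0.007), while Per1 fell 1.49-fold (adjusted p = 0.014) and Arntl, BMAL1, 1.28-fold (adjusted p = 0.016). For Per1 the call was lost without 50 lux replicate 3 (highest adjusted p = 0.063), and for Arntl the call was lost without 50 lux replicate 3 or 2500 lux replicates 2 and 3 in turn (highest adjusted p = 0.071). Of 23 genes of the lysosome and autophagy 3 rose and 3 fell. Lamp2 rose 2.25-fold, the hydrolase Gusb 1.74-fold and Sqstm1, an autophagy receptor, 1.48-fold, while the hydrolase Hexa fell 1.37-fold, Atg12 1.4-fold and the kinase Ulk1 1.37-fold. For Sqstm1 the call was lost without 50 lux replicate 3 or 2500 lux replicates 1, 2 and 3 in turn (highest adjusted p = 0.12), for Hexa the call was lost without 50 lux replicate 1 or 2500 lux replicate 2 in turn (highest adjusted p = 0.057), for Atg12 the call was lost without 2500 lux replicate 3 (highest adjusted p = 0.062) and for Ulk1 the call was lost without 50 lux replicate 3 or 2500 lux replicate 3 in turn (highest adjusted p = 0.059). On leaving out single arrays 2 to 3 of the list rose and 1 to 3 fell, the latter lowest without 2500 lux replicate 3.

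The same light step in wild-type retina, measured on 5 other arrays, gave calls for 1535 of 10916 genes (14.1%), 975 higher (8.93%) and 560 lower (5.13%). Across all genes, the changes in the 2 genotypes correlated at r = 0.835, a description over genes, which are not independent replicates. Of the 968 genes that rose in the knockout, 953 had a positive change in wild type and 644 were called there, 66.5% of the knockout's rises and 66.1% of the wild type's 975. Of the 1477 that fell, 1354 had a negative change in wild type and 440 were called, 29.8% of the knockout's falls and 78.6% of the wild type's 560. The genes that rose had a median of 0.88 in the knockout and 0.79 in wild type, and those that fell -0.62 and -0.34. Both sets were chosen by their call in the knockout, so these medians do not compare the genotypes. The wild-type 50 lux group has 2 arrays against 3, so the number of calls in each genotype is not a comparison of the genotypes.

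**Figure D4:**
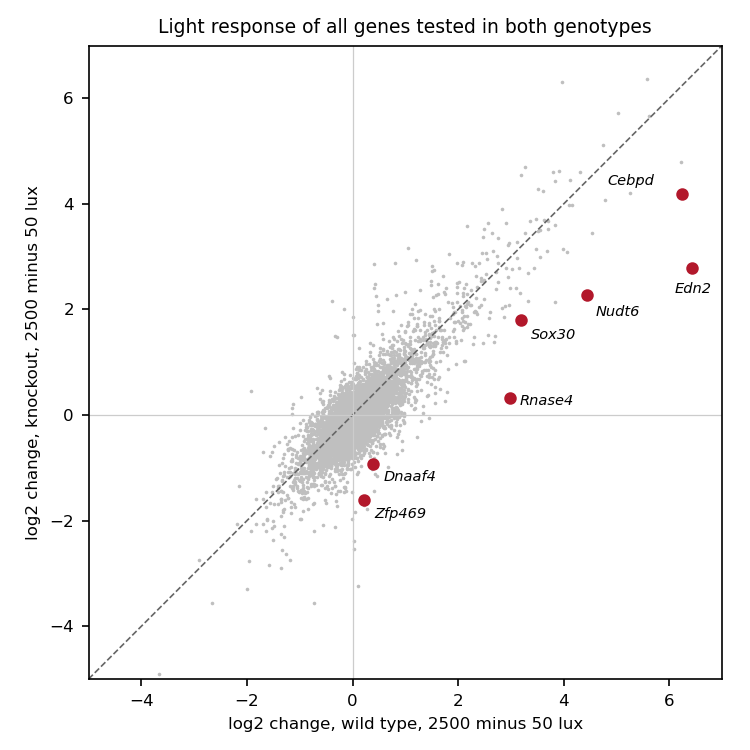
Log2 change at 2500 against 50 lux of each of 10916 genes (points) in wild type (horizontal axis) and knockout retina (vertical axis), with the line of equal change dashed. The 7 genes in red, whose change differed between the genotypes in the interaction test, all lie below the line.

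The difference between the 2 responses was tested by the interaction of genotype and light. It was called for 11 probe sets (0.0472%) and 7 genes (0.0641%). All 7 had the lower change in the knockout, and by limma 0 genes had the higher one. At an unadjusted p under 0.05, 185 genes had the higher change in the knockout and 855 the lower. Some other settings also called genes with the higher change. They numbered 2 with values below log2 4 raised to it, beside 6 lower, and 2 with array weights, beside 11. There were 3 with the replicate block, beside 16 lower, and 4 with the mean of a gene's probe sets, beside 11. Without wild-type 2500 lux replicate 3 there were 6, beside 6 lower. Edn2 rose 6.9-fold in the knockout and at least 71.2-fold in wild type, where both 50 lux arrays lay below log2 4. The fitted difference was -3.64 (SE 0.45, adjusted p = 0.01), and -3.37 with values below log2 4 raised to it. The levels at 2500 lux overlapped, 10.11, 10.20 and 10.60 in the knockout and 10.04, 9.90 and 10.53 in wild type, and those at 50 lux did not, 6.83, 7.35 and 8.36 against 3.57 and 3.89. Cebpd, a transcription factor of the gp130 response, had the same shape: it was at 7.83, 7.58 and 8.02 at 50 lux and 11.98, 11.94 and 12.09 at 2500 lux in the knockout and at 5.88 and 5.02 and then 11.39, 11.62 and 12.08 in wild type, a difference of -2.05 (adjusted p = 0.044). In both genes the knockout arrays at 50 lux lay above the wild-type ones.

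Nudt6, a Nudix hydrolase gene that overlaps Fgf2 on the opposite strand, changed by 2.28 in the knockout and 4.45 in wild type (adjusted p = 0.001 for the difference). It was at 8.50, 8.87 and 8.77 in the knockout and 6.46 and 6.36 in wild type at 50 lux. Sox30, a factor of germ cells, changed by 1.80 and 3.19 (adjusted p = 0.018). Rnase4, a secreted ribonuclease, was at 6.31, 6.10 and 5.66 at 50 lux and 6.52, 6.35 and 6.15 at 2500 lux in the knockout and at 4.87 and 4.09 and then 7.26, 7.61 and 7.49 in wild type (adjusted p = 0.0065). Here too the wild type at 50 lux was the low group. Zfp469, a zinc finger gene, was at 4.35, 5.10 and 4.54 at 50 lux and 2.78, 3.24 and 3.16 at 2500 lux in the knockout and below log2 4 on all wild-type arrays of both doses (adjusted p = 0.047). Dnaaf4, a factor of cilium assembly, was at 5.40, 5.60 and 5.34 at 50 lux and 4.55, 4.46 and 4.55 at 2500 lux in the knockout and at 5.21 and 4.95 and then 5.63, 5.54 and 5.21 in wild type (adjusted p = 0.044). Of the 11 fits that left out 1 array of these groups, Rnase4 and Nudt6 were called in all 11, Edn2 in 8, Sox30 in 7, Cebpd in 3, Zfp469 in 2 and Dnaaf4 in 1. Other settings also ended calls. Nudt6 lost its call with the mean of its probe sets (adjusted p = 0.088) and Cebpd with no filter on dim probe sets (0.068). Dnaaf4 lost it in 3 of 9 settings (highest adjusted p = 0.084) and Zfp469 in 4 of 8 (highest 0.39, with values below log2 4 raised to it). Rnase4, Edn2 and Sox30 were called in all 9.

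Some genes passed the test in 1 genotype and not in the other, and for these the difference itself did not pass it. All 7 measured complement genes rose in wild type against 3 in the knockout. C1qa had a log2 difference, 2500 minus 50 lux, of 1.29 in wild type and -0.11 in the knockout (adjusted p = 0.43 for the difference), and C1qb of 1.43 and 0.38 (adjusted p = 0.58). Tyrobp, a myeloid adaptor, had differences of 1.75 and 0.27 (adjusted p = 0.25). In the other direction, Ccl2 was at 7.01, 6.94 and 7.76 at 2500 lux in the knockout and 4.29, 4.98 and 5.45 in wild type, with the 50 lux arrays of both near or below log2 4 (adjusted p = 0.23). Aldh1a3 was at 4.20, 5.31 and 5.72 and 2.21, 2.25 and 3.37 (adjusted p = 0.21) and Myc at 4.50, 5.61 and 5.03 and 2.53, 2.73 and 3.58 (adjusted p = 0.19). Both were below log2 4 on all 50 lux arrays and all wild-type arrays at 2500 lux, so no size of the change in wild type is given. These examples were chosen after their values were seen, and none of them is shown to differ between the genotypes.

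**Figure D5:**
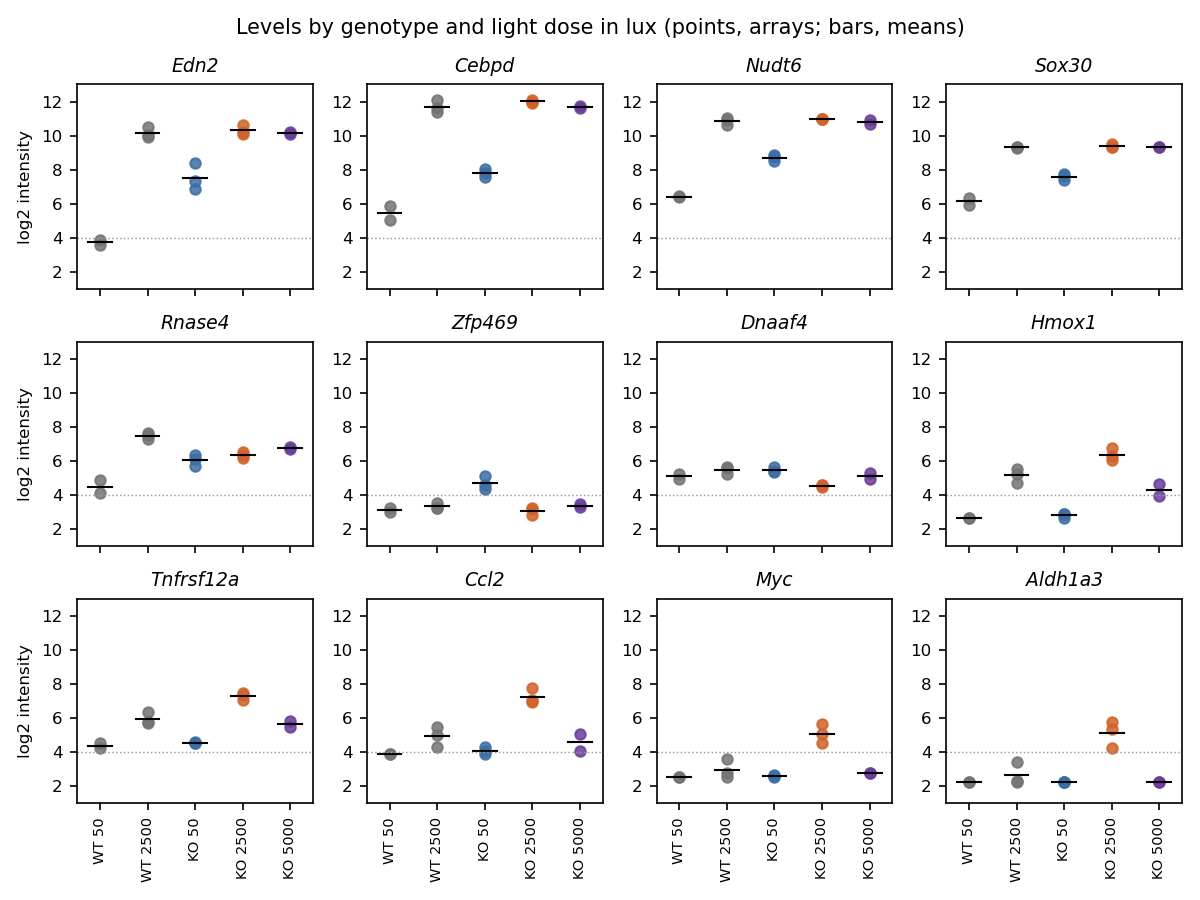
Log2 intensity (vertical axis) of 12 genes on each array (points) of 5 groups of genotype and dose in lux, with bars for group means and the low-signal limit of log2 4 dotted. Edn2, Cebpd, Nudt6 and Sox30 are higher in knockout than in wild-type retina at 50 lux and overlap at 2500 lux; Hmox1, Tnfrsf12a, Ccl2, Myc and Aldh1a3 are lower at 5000 than at 2500 lux in the knockout.

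A further step to 5000 lux in the knockout (2 arrays) gave calls for 18 probe sets (0.0772%) and 13 genes (0.119%) against 2500 lux, all 13 lower at 5000 lux and 0 higher by limma (646 higher and 853 lower at an unadjusted p under 0.05). Tnfrsf12a was at 7.31, 7.44 and 7.04 at 2500 lux and at 5.81 and 5.43 at 5000 lux (adjusted p = 0.013), and Hmox1 at 6.02, 6.25 and 6.72 and then 4.60 and 3.92 (adjusted p = 0.016). Penk, Ccl2, Myc and Aldh1a3 were among the others. Some other settings also called genes higher at 5000 lux. They numbered 9 with the mean of a gene's probe sets, beside 49 lower, and 1 with an intensity trend, beside 12. Under the other settings that kept all arrays of both doses, Penk was called in 10 of 10 and Tnfrsf12a in 9 of 10. Hmox1 and Ccl2 were called in 8 of 10, and Myc and Aldh1a3 in 6 of 9. No call was left without 5000 lux replicate 2, and 103 probe sets were called without replicate 1. Against 50 lux, the rod list had 5 falls of 16 and a median of -0.29 at 5000 lux, beside 14 falls and -0.64 at 2500 lux. There 852 genes in all fell (7.81%) and 502 rose (4.6%). The interferon list had 23 rises of 30 and a median of 1.57, beside 27 and 2.48. Both comparisons use the same 50 lux arrays.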

How the data were processed

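RNA was hybridised to Affymetrix 3' expression arrays, and the deposited values are intensities on a linear scale, made by the authors with GCRMA, per the submitters' processing notes, with no version given. They were taken to log2. Probe sets above log2 4 (intensity 16) on at least 2 of 16 arrays were kept, 23320 of 45037; 34945 had 1 gene symbol in the platform annotation, 932 several and 9160 none. Limma 3.58.1 in R 4.3.3 fitted the 6 group means over 16 arrays, with 10 residual degrees of freedom, empirical Bayes without a trend and Benjamini-Hochberg adjustment over all tested probe sets at 0.05. The script was tested on simulated data. Named were Nxnl1, Nxnl2, the 40 largest rises and falls among called, non-overlapping genes, the 10 or fewer members of a list that ranked first by p, the ligands and receptors of the gp130 and endothelin lists, and the called genes of the 2 further contrasts. Genes not passing the low-signal filter were named only as such. The members and lists were chosen with earlier results of these data known. Alternatives were median centring, quantile normalization, no filter or log2 5 on 3 arrays, low values raised to log2 4, 6 or 8 arrays, array weights, an intensity trend, a replicate block, the mean of a gene's probe sets, and each array left out. The number of arrays limits the precision.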

Additional observations from a re-analysis of the deposited data

Results flagged for a closer look

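For 7 genes the light response at 2500 lux differed between the genotypes in the interaction test, each with the lower change in the knockout. The difference, knockout minus wild-type log2 change, was -3.64 for Edn2, -2.66 for Rnase4, -2.16 for Nudt6, -2.05 for Cebpd, -1.82 for Zfp469, -1.39 for Sox30 and -1.31 for Dnaaf4. The values of Edn2 and Zfp469 rest in part on groups below log2 4. With such values raised to it they were -3.37 and -0.66. At 2500 lux the means of Edn2 were 10.30 in the knockout and 10.15 in wild type, those of Nudt6 10.99 and 10.86, those of Cebpd 12.0 and 11.70 and those of Sox30 9.37 and 9.32. At 50 lux the means lay further apart: 7.52 in the knockout against 3.73 in wild type for Edn2, 8.71 against 6.41 for Nudt6, 7.81 against 5.45 for Cebpd and 7.57 against 6.13 for Sox30.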

How the results depend on the processing

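Of 7239 values of named genes under the alternatives, 6886 (95.1%) kept their side of the threshold, 215 were no longer past it and 138 newly passed it. None of those called in either fit reversed direction (0). Changes of direction in genes called in neither fit were not counted. Of 282 named genes with a call, 245 kept it without each array in turn and 238 under every alternative that tested them. Most were named for large changes or small p in these same data, so these counts do not stand for all calls. Of all 4501 probe sets called, 2892 were still called without 2500 lux replicate 3. With array weights, 6791 probe sets were called in the knockout light response in place of 4501, 3085 of them higher, and 1479 genes were higher. With the 8 knockout arrays alone, 1644 probe sets and 983 genes were lower. Without 1 array, 2918 to 4440 probe sets were called, 1538 to 2469 of them lower and 1380 to 1971 higher, and 926 to 1510 genes were lower and 731 to 982 higher.

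The interaction, with 11 probe sets called, gave 47 with no filter, 22 with array weights, 7 with an intensity trend and 3 to 15 without 1 array. The step to 5000 lux, with 18, gave 32 after median centring, 11 with the stricter filter, 48 with the 8 knockout arrays alone, 1 with array weights and 0 to 103 without 1 array. The causes were not tested, except that fewer arrays enter where 1 is left out.

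The replicate number as a block gave 5470 probe sets in the light response (4458 shared with the 4501), 27 for the interaction and 15 for the step to 5000 lux. Deviations of same-numbered knockout arrays correlated at 0.061, 0.0002 and 0.208, and those of different-numbered ones at -0.127 to 0.063. The main fit did not pair arrays by number, and whether the numbers pair them was not tested.

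Signal over background limits transcripts near log2 4, whose folds are bounds, and the 3 arrays a dose limit changes as small as those of the respiratory chain. The makeup of the arrays by sex-linked transcripts differed with the dose and cannot be told apart from it.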
